A study of Mus musculus with 12 samples.

Results

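A set of 10 adhesion genes was followed across RNA sequencing of mouse CD8 T cells, which kill target cells they recognise. They were the integrin chains Itgb1, Itgb2, Itgb7, Itga4, Itgal, Itgam and Itgax, the selectin ligand Selplg, the hyaluronan receptor Cd44 and the integrin ligand Icam1. They were chosen by name as molecules of leukocyte entry and make up 10 of the 23937 genes in the deposited table, which holds all of them. The cells were sorted by flow cytometry into lysis buffer, and 12 libraries form 4 groups of 3: blood of naive mice, brain of naive mice, and brain 3 days or 30 days after stroke. No strain, sex, age or stroke model is given in the sources used here, and no group carries a named allele or drug. The treatment protocol speaks of spleens where the sample labels say brain or blood, and the groups follow the sample labels. Whether the 3 libraries of a group stem from 3 mice is not stated in the labels, and p-values cover the spread between libraries alone, which may be technical.

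Integrins are surface receptors built from an alpha and a beta chain, and the pair decides what is bound. A T cell slows on the vessel wall through selectin ligands such as PSGL-1, the product of Selplg. It then stops and crosses when its integrins, switched on by chemokine signals, grip ICAM and VCAM proteins on the endothelium. Itgal with Itgb2 forms LFA-1, which binds ICAM-1, and Itga4 with Itgb1 forms VLA-4, which binds VCAM-1 and fibronectin and is used by T cells to enter the inflamed brain.

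Libraries held 1104490 to 21014171 reads, and every member had reads in every library, the fewest being 10 reads of Itgax in naive blood replicate 2. Levels are in CPM, which here means reads scaled by a library size that the authors had adjusted. Differences are on the log2(CPM + 1) scale with their standard error (SE), and a gene passed when its limma p-value, adjusted by Benjamini and Hochberg over 22352 genes, was under 0.05. The libraries also differed in a background of reads on chemosensory receptor genes (smell, pheromone and taste), which are not known as CD8 T cell genes. It was low in all 3 naive brain libraries, day 3 replicate 1 and day 30 replicate 1, and high in the other 7, all blood libraries included. At least 11 of 12 CD8 T cell markers (Cd8a, Cd3e and others) were detected in every library, at 0.316 to 0.465% of reads in blood, 0.664 to 0.834% in naive brain, 0.0734 to 0.240% at day 3 and 0.473 to 1.22% at day 30. All 16 microglia markers were detected in every library too, at 0.0228 to 0.0675%, 1.24 to 2.4996%, 0.439 to 1.68% and 0.227 to 0.689% in the same order. In these bulk samples, fewer cells of a type and less RNA per cell cannot be told apart.

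**Figure D1:**
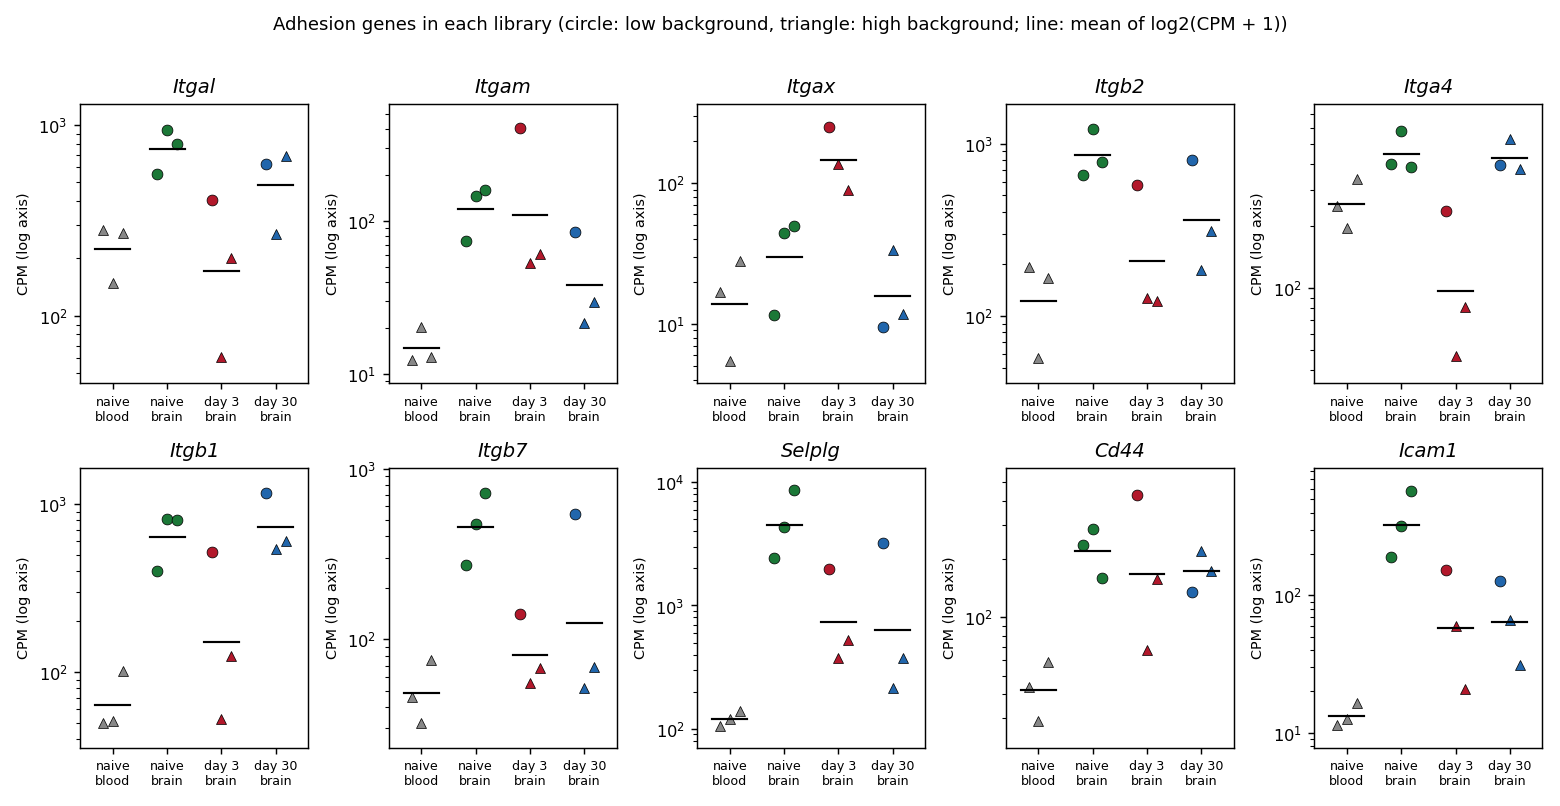
CPM of the 10 adhesion genes in each library (log axis), by group, with circles for low and triangles for high background libraries and a line at the mean of log2(CPM + 1). Naive brain had the highest such mean of the 4 groups for 8 of 10 genes, while Itgax was highest at day 3.

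Among the 3 member alpha chains that share Itgb2, Itgal made up a smaller share at day 3 than in any other library. Itgad, a further alpha chain that pairs with Itgb2, was not a member and is left out of these shares. It averaged 44.7 CPM at day 3 and 4.44 in naive brain (limma adjusted p = 0.153). Itgal, the alpha chain of LFA-1, lies on chromosome 7 at 127296260 to 127335138 (mm10, forward strand). Itgam, the CD11b chain of complement receptor Mac-1, and Itgax, the CD11c chain known from dendritic cells, lie further along the same chromosome, at 128062640 to 128118491 and 128129547 to 128150657, with 11055 bases between them. Both are best known from myeloid cells and are also found on some activated CD8 T cells. The stretch from 250 bases before to 50 bases after their start sites (RefSeq, GRCm38.p6, forward strand) is shown because Itgax was higher in every day 3 library than in the other 9 and Itgam is its neighbour. Capitals mark GAGGAA or its reverse complement TTCCTC, the core bound by the myeloid factor PU.1.
Itgam chr7:128062390-128062689: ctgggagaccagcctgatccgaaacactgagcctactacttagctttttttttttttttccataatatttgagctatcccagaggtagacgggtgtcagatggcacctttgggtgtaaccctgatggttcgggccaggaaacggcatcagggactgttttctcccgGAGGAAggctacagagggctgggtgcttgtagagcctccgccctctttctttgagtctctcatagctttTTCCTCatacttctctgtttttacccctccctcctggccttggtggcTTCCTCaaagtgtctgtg
Itgax chr7:128129300-128129599: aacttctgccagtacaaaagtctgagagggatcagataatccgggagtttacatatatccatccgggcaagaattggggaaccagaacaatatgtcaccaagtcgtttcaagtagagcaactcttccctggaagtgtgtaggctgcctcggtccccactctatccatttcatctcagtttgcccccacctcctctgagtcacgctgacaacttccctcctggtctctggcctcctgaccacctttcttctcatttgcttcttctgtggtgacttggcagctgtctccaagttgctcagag
The Itgam stretch holds 3 such matches, of which 1 starts 15 bases before the start site, and the Itgax stretch holds none. Such a match on either strand is held by 28.3% of the 32851 RefSeq promoters, and a match of letters is not a bound site. The longer GAGGAAGT, which includes the shorter motif and is held by 3.20% of promoters, is in neither.

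Itgal, with replicates 1 to 3 in that order throughout, measured 281, 149 and 272 CPM in blood. Naive brain gave 557, 937 and 794, day 3 brain 404, 61.0 and 202, and day 30 brain 623, 267 and 684 CPM. All naive brain libraries lay above all blood and all day 3 libraries. Itgax measured 16.8, 5.49 and 27.8 CPM in blood. Naive brain gave 11.6, 43.9 and 49.95, day 3 brain 251, 137 and 90.0, and day 30 brain 9.52, 33.5 and 11.7 CPM. Each day 3 library was above each of the other 9. Itgam measured 12.4, 20.3 and 13.02 CPM in blood. Naive brain gave 73.6, 146 and 160, day 3 brain 406, 53.2 and 60.5, and day 30 brain 85.0, 21.6 and 29.8 CPM. Blood was below all brain libraries. Day 3 replicate 1 stood above the rest, while day 3 replicates 2 and 3 lay below all naive brain libraries, and the groups differed by -0.13 ± 0.84 (day 3 minus naive brain, limma adjusted p = 0.933).

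Set against each other per base of exon, the 3 alpha chains gave a share that no library scaling touches. It rested on 318 to 10471 reads per library. Itgal made up 81.4 to 87.8% in blood, 74.1 to 83.2% in naive brain and 78.3 to 92.6% at day 30, but 31.6, 19.1 and 49.97% in day 3 replicates 1 to 3. Itgax took 26.9, 59.0 and 30.5% at day 3 and at most 13.4% in the other 9 libraries. Itgam took 41.5, 21.9 and 19.6% at day 3, and its share in naive brain reached 19.5%, just under the lowest day 3 value. Itgal held the largest of the 3 shares in 10 of 12 libraries, and the exceptions were day 3 replicates 1 and 2, led by Itgam and Itgax.

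The order was the same within each background class. Among low background libraries Itgal held 31.6% at day 3, against 74.1 to 83.2% in naive brain and 83.4% at day 30. Among high background libraries it held 19.1 and 49.97% at day 3, against 78.3 and 92.6% at day 30 and 81.4 to 87.8% in blood. Markers of other cell types were set beside these shares. The 11 dendritic cell markers (Flt3, H2-Ab1, Cd74 and others), all detected in every brain library, summed to 147 to 252 CPM in blood, 4279 to 7432 in naive brain, 37542, 2873 and 3791 in day 3 replicates 1 to 3 and 359 to 1354 at day 30. Replicates 2 and 3 of day 3 were thus below naive brain in CPM, but as a percentage of all reads the list stood at 2.32, 0.546 and 0.558% in the day 3 libraries and at 0.318 to 0.464% in naive brain. MHC class II genes and Cd74 weighed most in the sum: H2-Ab1 gave 9191 and Cd74 13625 of the 37542 CPM in day 3 replicate 1. Flt3 did not follow the sum, with 169, 121 and 114 CPM at day 3 and 223, 38.5 and 36.6 in naive brain. The 15 measured monocyte and macrophage markers summed to 366 to 1378 CPM in blood, 5709 to 6977 in naive brain, 2077 to 18713 at day 3 and 2341 to 7054 at day 30. The 12 CD8 T cell markers summed to 387 to 3874 CPM at day 3 and 8928 to 14666 in naive brain, with 10 lower between these groups by limma. The part of these cell types in the shares was not tested.

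**Figure D2:**
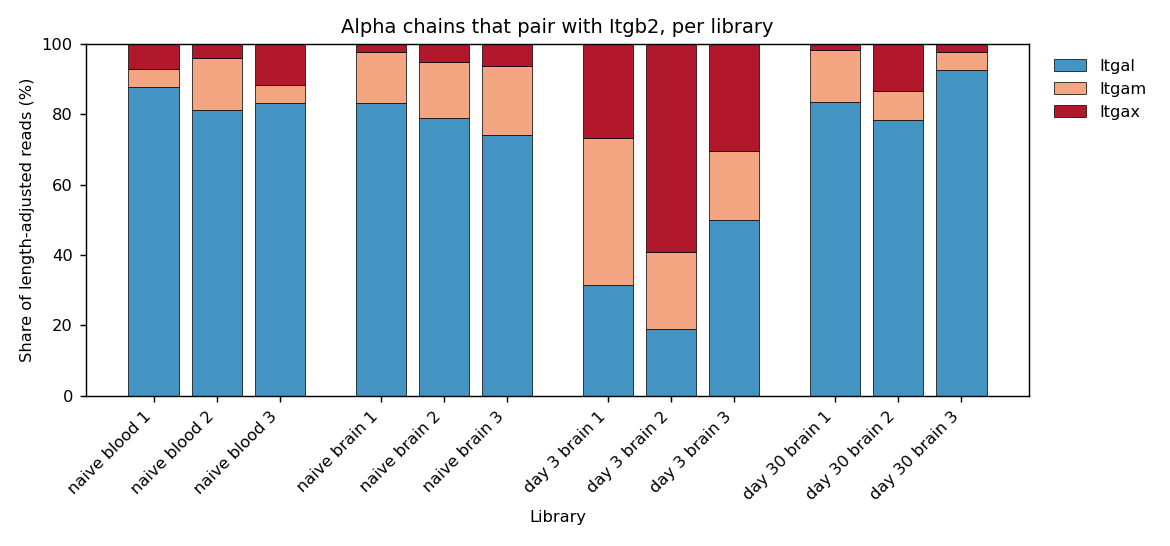
Share of Itgal, Itgam and Itgax among the reads of these 3 alpha chains per base of exon (%), 1 bar per library in 4 groups of 3. Itgal holds 74.1% or more in the 9 libraries outside day 3 and 49.97% or less in the 3 day 3 libraries.

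Single-gene tests of these chains mostly missed the threshold. Itgax was higher at day 3 than in blood by 3.30 ± 0.89 (SE, n = 3 and 3, limma adjusted p = 0.0419), 1 of 10 members against 1.1% of all genes called higher there. It passed in 14 of 25 alternatives, and the adjusted p reached 0.274. It was lost, among others, with the background as a term (3.27, adjusted p = 0.0655) and in high background libraries alone (2.91, adjusted p = 0.167). Leaving out naive blood replicate 1 or 2 or day 3 replicate 1, 2 or 3 also ended its call, with adjusted p of 0.0926, 0.253, 0.274, 0.105 and 0.0785. Against naive brain the difference was 2.26 ± 0.89 (adjusted p = 0.283), and from day 3 to day 30 it was -3.14 ± 0.89 (adjusted p = 0.137). Itgal differed by -2.12 ± 0.69 between day 3 and naive brain (adjusted p = 0.156) with no overlap of the libraries.

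Itgb2, the shared beta chain (chromosome 10, 77530252 to 77565708), was higher in naive brain than in blood. It measured 193, 56.5 and 165 CPM in blood. Naive brain gave 657, 1215 and 778, day 3 brain 571, 126 and 122, and day 30 brain 808, 183 and 309 CPM. Naive brain and blood did not overlap and differed by 2.80 ± 0.71 (adjusted p = 0.00708). Per base of exon Itgb2 ran at 1.56 to 2.20 times the sum of the 3 alpha chains in naive brain, at 0.650 to 0.961 times at day 3 and at 0.666 to 1.297 times in blood. Day 30 spanned 0.901 to 2.33, with the top value in replicate 1.

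Itgb1 passed the test against blood both in naive brain and at day 30. It encodes the beta chain of VLA-4 and of many matrix receptors, and lies on chromosome 8 at 128685654 to 128733200. Its start region (RefSeq, GRCm38.p6, forward strand) is shown for that reason, with GAGGAA in capitals, 9 bases before the start site.
Itgb1 chr8:128685404-128685703: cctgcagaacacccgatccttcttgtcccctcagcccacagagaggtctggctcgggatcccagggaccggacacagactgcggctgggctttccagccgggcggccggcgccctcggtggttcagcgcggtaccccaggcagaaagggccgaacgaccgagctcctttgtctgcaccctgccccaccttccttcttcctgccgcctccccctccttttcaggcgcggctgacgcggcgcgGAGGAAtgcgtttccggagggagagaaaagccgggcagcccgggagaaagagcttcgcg
Itgb1 measured 49.7, 51.0 and 101 CPM in blood. Naive brain gave 397, 817 and 804, day 3 brain 515, 52.8 and 125, and day 30 brain 1165, 543 and 606 CPM. All day 30 and all naive brain libraries lay above all blood libraries, while day 3 overlapped blood. Day 30 exceeded blood by 3.49 ± 0.72 (limma adjusted p = 0.00336), the 1 member of 10 called there against 0.676% of all genes called higher. The call held in 25 of 25 alternatives, with differences from 2.88 to 3.82. They included the background term (2.88, adjusted p = 0.0115) and the high background libraries alone, with 2 day 30 and 3 blood libraries (3.15, adjusted p = 0.0392). Leaving out day 3 replicate 2 or day 30 replicate 2 brought Selplg in as well, for 2 members in each case. Of all genes, 87 to 213 were called when 1 library was left out.

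Naive brain exceeded blood in Itgb1 by 3.31 ± 0.72 (limma adjusted p = 0.00122). Day 3 was lower than naive brain by a point estimate of -2.08 ± 0.72 (adjusted p = 0.190), and day 30 differed from day 3 by 2.26 ± 0.72 (adjusted p = 0.268) with no overlap. The day 30 and day 3 libraries with the same replicate number deviated from their groups together, but replicates 2 and 3 also did so across numbers. With the replicate as a block no member passed between day 30 and day 3 either.

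Itga4, the alpha chain shared by VLA-4 and the gut-homing receptor, kept a narrower range outside day 3. It lies on chromosome 2 at 79255426 to 79333123 and measured 252, 197 and 340 CPM in blood. Naive brain gave 400, 578 and 388, day 3 brain 237, 46.9 and 81.4, and day 30 brain 396, 530 and 382 CPM. Day 3 lay below all other brain libraries. The difference from naive brain was -2.20 ± 0.69 (adjusted p = 0.134) and day 30 minus day 3 was 2.14 ± 0.69 (adjusted p = 0.274). The gene overlaps Cerkl on the opposite strand, and reads of the pair may be hard to separate because the strand setting of the counting is not given. Cerkl itself measured 10.5 to 142 CPM, and its lowest level was in day 3 replicate 2 and its highest in day 30 replicate 2.

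Per base of exon, Itgb1 ran at 0.676, 0.887 and 1.02 times Itga4 in the 3 blood libraries and at 3.40 to 10.1 times in all 9 brain libraries. The 4 high background brain libraries alone gave 3.51 to 5.44, so the gap from blood was present within the high background class. Naive brain gave 3.40, 4.84 and 7.11, day 3 gave 7.45, 3.86 and 5.25, and day 30 gave 10.1, 3.51 and 5.44. Brain groups thus overlapped each other in this ratio while none overlapped blood. Microglia markers were also higher in all brain libraries than in blood (1795 to 52162 against 178 to 409 CPM summed), and their part in the ratio was not tested.

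Itgb7 is the beta chain that with Itga4 forms the gut-homing integrin, and with the CD103 chain binds E-cadherin. It lies on chromosome 15 at 102215995 to 102231944. It measured 46.0, 32.4 and 75.7 CPM in blood. Naive brain gave 272, 472 and 718, day 3 brain 140, 55.5 and 68.0, and day 30 brain 544, 51.9 and 68.6 CPM. Naive brain exceeded blood by 3.20 ± 0.78 (adjusted p = 0.00422). At day 30 only replicate 1, the low background library, was far above blood. Per base of exon, Itgb7 ran at 2.99 to 9.35 times Itga4 in the 5 low background libraries and at 5.98 and 4.22 times in day 3 replicates 2 and 3. It ran at 0.494 and 0.908 times in day 30 replicates 2 and 3 and at 0.829 to 1.12 times in blood. Itgb1 ran at 7.10 and 5.99 times Itgb7 in those 2 day 30 libraries, against at most 2.49 times in the other 10.

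**Figure D3:**
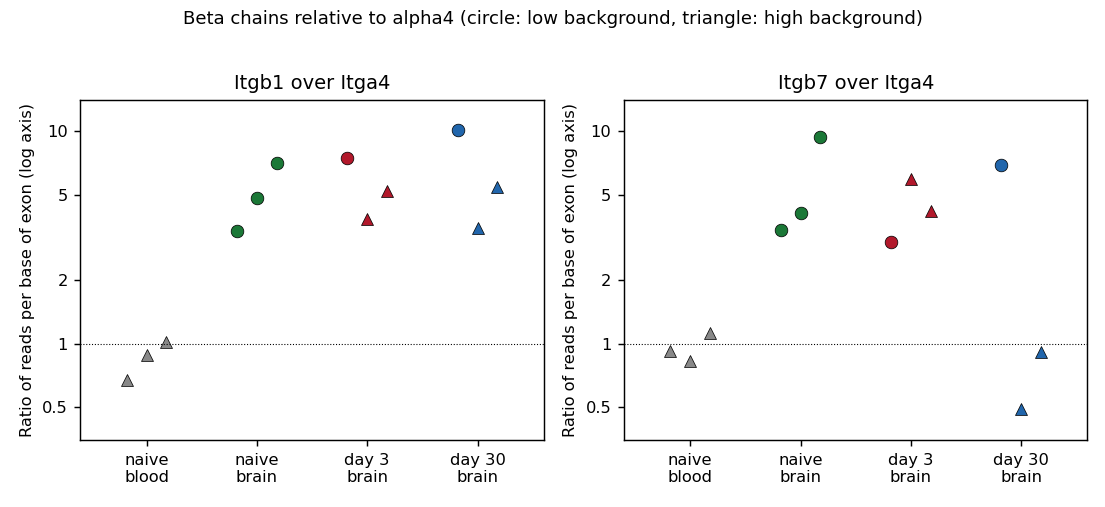
Ratio of Itgb1 (left) and Itgb7 (right) to Itga4 in reads per base of exon (log axis), 1 point per library, circles for low and triangles for high background. Itgb1 over Itga4 is 3.40 or more in all 9 brain libraries and 1.02 or less in blood, while Itgb7 over Itga4 in day 30 replicates 2 and 3 lies in or under the blood range.

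Selplg showed the widest gap between naive brain and blood. It encodes PSGL-1, the ligand of P-selectin, and is also abundant in microglia, and it lies on chromosome 5 at 113818536 to 113832644. It measured 105, 119 and 140 CPM in blood. Naive brain gave 2430, 4349 and 8694, day 3 brain 1984, 376 and 525, and day 30 brain 3237, 212 and 372 CPM. Every brain library was above every blood library. Naive brain exceeded blood by 5.22 ± 0.72 (limma adjusted p = 3.08e-07), which is 37.2-fold on that scale. Day 3 and day 30 differed from blood by 2.59 ± 0.72 (adjusted p = 0.0513) and 2.39 ± 0.72 (adjusted p = 0.109). Per kilobase of exon its mean was the highest of all members in each of the 3 brain groups. That mean was 1207 ± 751 CPM in naive brain (SD, n = 3). At day 30 Selplg spanned 49.7 to 758 CPM per kilobase, and its rank came from replicate 1. In day 30 replicates 2 and 3 Itgb1 was above it, at 543 and 606 CPM over a shorter exon length (4081 against 4272 bases). In blood Selplg ranked 3 at 28.4 ± 4.10, behind Itgb2 and Itgal. The blood rank depends on the length used, as the longest Selplg transcript has 2314 bases.

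Icam1, the ligand of LFA-1 and a target of NF-kB, followed Selplg. It lies on chromosome 9 at 21015985 to 21028817. In its start region (RefSeq, GRCm38.p6, forward strand), shown because this is the member known for induction by inflammation, capitals mark GGAAATTCC, an NF-kB core that starts 153 bases before the RefSeq start site, and TATAAA. The TATAAA starts at base 14 after that site. The RefSeq site lies before the gene start given above (21015985), since the stretch ends 50 bases past it, at 21015989. TATAAA thus lies after the RefSeq site and before that gene start.
Icam1 chr9:21015690-21015989: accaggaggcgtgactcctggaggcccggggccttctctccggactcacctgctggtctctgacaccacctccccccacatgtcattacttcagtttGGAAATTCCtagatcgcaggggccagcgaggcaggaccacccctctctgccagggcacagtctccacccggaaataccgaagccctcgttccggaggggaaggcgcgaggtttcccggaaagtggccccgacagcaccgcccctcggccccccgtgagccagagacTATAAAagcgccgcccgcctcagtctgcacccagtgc
On either strand, GGAAATTCC is held by 0.317% and TATAAA by 13.6% of all RefSeq promoters, and of the 7 members with an entry only Icam1 held either. Icam1 measured 11.4, 12.6 and 16.5 CPM in blood. Naive brain gave 189, 322 and 578, day 3 brain 153, 60.0 and 20.9, and day 30 brain 127, 66.6 and 31.2 CPM. Blood lay below all brain libraries, and naive brain above all post-stroke libraries. Naive brain exceeded blood by 4.52 ± 0.81 (adjusted p = 8.06e-05). Against naive brain, day 3 differed by -2.48 ± 0.81 (adjusted p = 0.160) and day 30 by -2.33 ± 0.81 (adjusted p = 0.308). The 8 endothelial markers summed to at most 258 CPM in any library.

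Cd44, which binds hyaluronan and is used as a mark of activated and memory T cells, lies on chromosome 2 at 102811141 to 102901665. It measured 43.8, 29.1 and 58.8 CPM in blood. Naive brain gave 237, 287 and 159, day 3 brain 429, 67.8 and 158.5, and day 30 brain 135, 220 and 174 CPM. All 9 brain libraries were above blood, and the brain groups overlapped. Naive brain exceeded blood by 2.36 ± 0.74 (adjusted p = 0.0349), while day 3 and day 30 differed from blood by 1.96 ± 0.74 (adjusted p = 0.286) and 2.01 ± 0.74 (adjusted p = 0.264).

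Across the list, 7 of 10 members were higher in naive brain than in blood and none was lower by limma, where 6.61% of all genes were called higher. These were Itgb1, Itgb2, Itgb7, Itgam (2.93 ± 0.84, adjusted p = 0.0191), Selplg, Cd44 and Icam1. The libraries did not overlap for 9 of 10, all but Itgax, with naive brain above, against 15.6% of all genes. The members' median difference was 2.86, and that of all genes tested was -0.37. The members' median was 1.66 with unscaled CPM and 1.67 with quantile normalization. All blood libraries had high and all naive brain libraries low background, so no value within a background class exists for this comparison. With the background as a term, which rests on the day 3 and day 30 libraries, no member passed (0.157% of all genes did): Selplg stood at 2.38 (adjusted p = 0.283), Icam1 at 2.75 (0.813) and Itgb1 at 1.47 (0.9995). Without single libraries the count was 5 (naive blood replicate 1, 2 or 3, or naive brain replicate 3), 6 (naive brain replicate 1), 4 (naive brain replicate 2) or 8 (day 3 replicate 1), and Itgb1, Itgb7, Selplg and Icam1 passed each time. Of all genes, 768 to 2124 were called when 1 library was left out. All 16 microglia markers were higher in naive brain too, and their part in these differences was not tested.

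Against naive brain, no member passed at day 3 by limma, where 0.716% of all genes did. Unadjusted p-values were under 0.05 for 8 of 10, against 12.8% of all genes, edgeR called 0 members (0.0761%) and DESeq2 called Itgax (4.47%). Libraries did not overlap for 7 of 10, with Itgax higher (8.76% of all genes) and Itga4, Itgal, Itgb2, Itgb7, Selplg and Icam1 lower (8.5%). The median was -2.10, beside 0.50 for all genes, and it was -1.12 with unscaled CPM and -0.96 with quantile normalization. Day 3 replicate 1 was the highest of its group for all 10 members, at 2.21 to 7.13 times the mean of replicates 2 and 3. Without it 6 members were called lower (Itgb1, Itga4, Itgal, Itgb2, Selplg and Icam1, where 2.98% of all genes were called), and with library quality weights 7 were (9.41%). The fit without replicate 1 sets high background day 3 libraries against low background naive brain libraries. Group and background cannot be told apart in it. Leaving out day 30 replicate 1 called Selplg alone (1.19% of all genes). In low background libraries, which keep 1 day 3 library, none passed (0% of all genes did), and the Selplg difference was -1.18 in place of -2.62. The median of the CD8 T cell markers differed by -3.25 in the same comparison, and their part was not tested.

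At day 30, no member passed against naive brain (0.224% of all genes did), 3 had an unadjusted p under 0.05, against 8.9% of all genes, and edgeR (0.0268%) and DESeq2 (1.07%) called 0. Icam1 alone did not overlap, lower at day 30 (6.03% of all genes). Selplg came nearest at -2.83 ± 0.72 (adjusted p = 0.0703). It passed alone without day 3 replicate 2 (0.291% of all genes called), and together with Itgb7, for 2 members, without day 30 replicate 1 (2.38%). The latter fit sets high background day 30 libraries against low background naive brain libraries, so it cannot tell group and background apart. Between day 30 and day 3 no member passed either (0.255% of all genes did), 4 had an unadjusted p under 0.05 (5.68%), edgeR called 0 (0.157%) and DESeq2 called Itgax (0.747%). Itgb1 and Itga4 did not overlap and were higher (4% of all genes), and Itgax was lower (5.65%). Without day 3 replicate 1 (0.514% of all genes called), and also with the background as a term (0.626%), Itgb1 and Itga4 were called higher at day 30, with adjusted p of 0.0385 and 0.0428 under the term.

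Against blood, 5 members did not overlap at day 3 (Itgam, Selplg, Cd44, Icam1 and Itgax, all higher, 7.54% of all genes). At day 30 there were 6 (Itgb1, Itga4, Itgam, Selplg, Cd44 and Icam1, all higher, 7.35% of all genes). Itgam differed by 2.80 ± 0.84 at day 3 (adjusted p = 0.0868) and by 1.299 ± 0.84 at day 30 (adjusted p = 0.630). The count of members called at day 3 was 0 without naive blood replicate 1 or 2 or day 3 replicate 1 or 3. It was 2 without day 3 replicate 2 or day 30 replicate 2 or 3, and 3 without day 30 replicate 1. Of all genes, 139 to 391 were called in these fits. These comparisons with blood share the same 3 blood libraries.

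**Figure D4:**
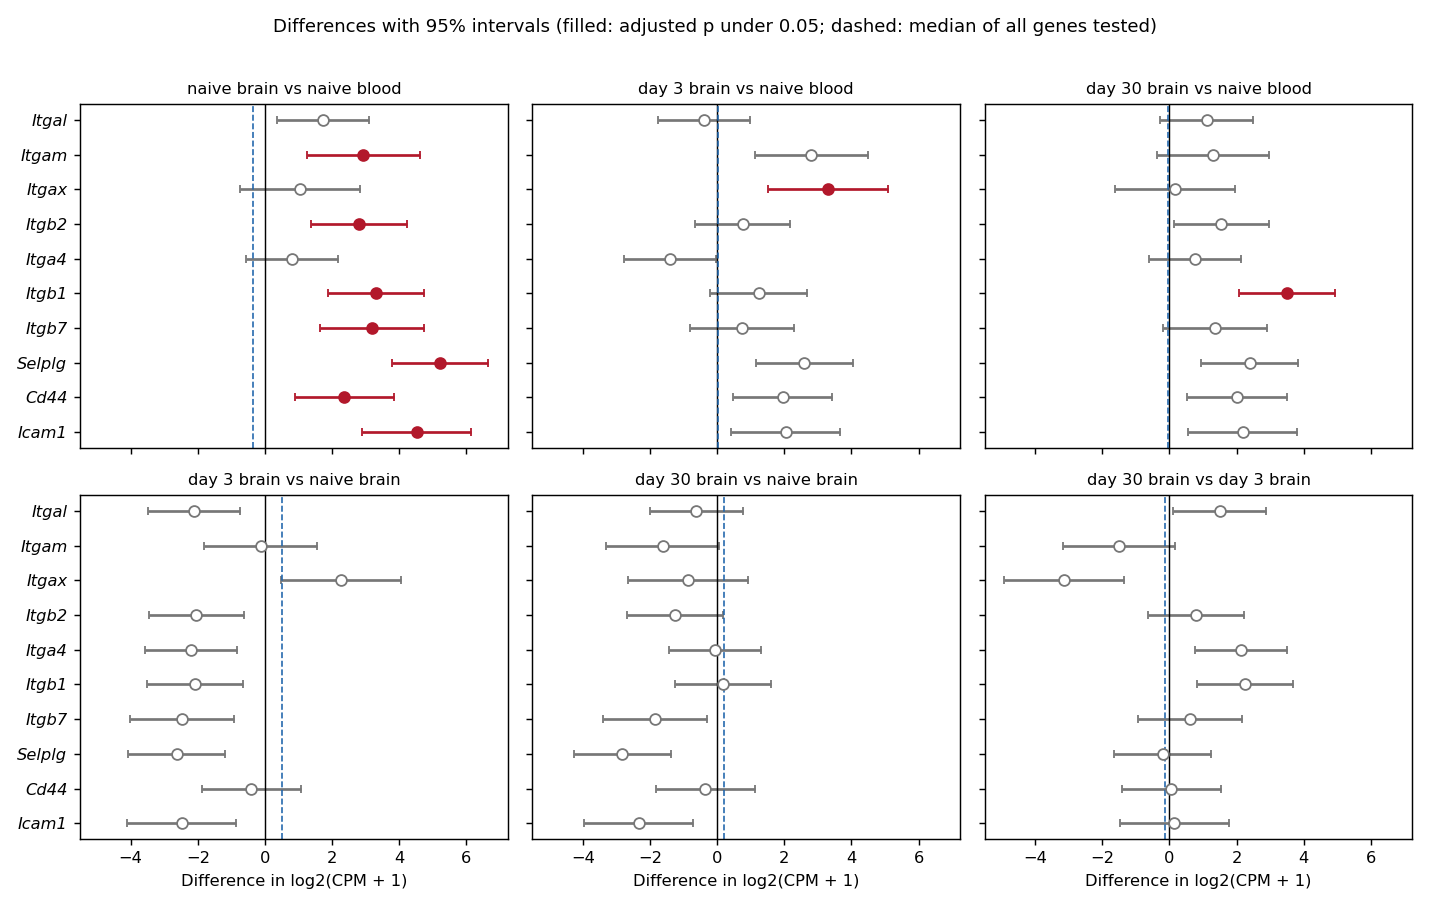
Differences in log2(CPM + 1) with 95% intervals for the 10 genes in 6 comparisons, filled where the adjusted p was under 0.05, with a dashed line at the median of all genes tested. Of the filled points 7 are in naive brain against blood, 1 is Itgax at day 3 against blood and 1 is Itgb1 at day 30 against blood.

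Ordered by the group mean of log2(CPM + 1), naive brain ranked first for 8 members, day 30 for Itgb1 and day 3 for Itgax. Blood ranked last for 8, and day 3 for Itga4 and Itgal. By mean CPM, Itgam would instead rank first at day 3 (173, against 127 in naive brain), where replicate 1 alone held 406 CPM. No 2 neighbouring groups in any member's order differed past the threshold.

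**Figure D5:**
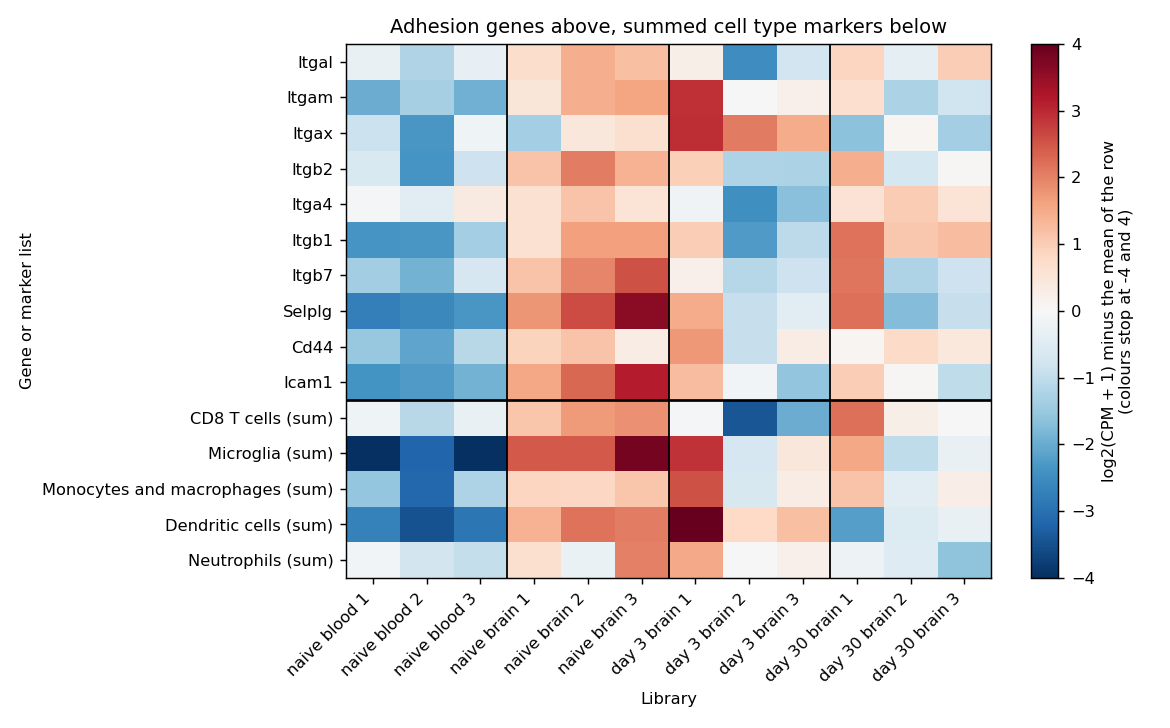
Deviation of log2(CPM + 1) from the row mean in each library for the 10 genes (above the line) and for summed markers of 5 cell types (below). Itgal and Itga4 are lowest in day 3 replicate 2, as are the CD8 T cell markers, and the dendritic cell markers are highest in day 3 replicate 1, as are Itgam and Itgax.

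Genes that switch integrins on and tie them to the cytoskeleton were called in 2 of the 6 comparisons. Of 25 such genes, 6 were higher in naive brain than in blood (6.61% of all genes were) and none lower (list median 1.60), led by Coro1a, an actin-binding protein of leukocytes (4.68 ± 0.74), Zyx, a protein of focal adhesions (4.45 ± 0.75), Ilk, a kinase-like partner of beta chains (3.51 ± 0.77) and the GTPase Rhoa (2.97 ± 0.73). Between day 3 and naive brain 3 were lower, where 0.564% of all genes were, and none higher (list median -1.53). They were Skap1, an adaptor that couples the T cell receptor to integrins (-3.27 ± 0.75, limma adjusted p = 0.0166), Rasgrp1, a Ras activator (-3.07 ± 0.73, adjusted p = 0.0233), and Coro1a (-2.78 ± 0.74, adjusted p = 0.0477). None passed in the other 4 comparisons. All-gene medians were -0.37 and 0.50, and the list's medians depended on the scaling. With unscaled CPM they were 0.38 and -0.56, and with quantile normalization 0.19 and -0.29, for naive brain against blood and day 3 against naive brain.

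Among 19 other integrin chains only Itgb5, a vitronectin receptor chain that microglia also express, was called in any of the 6 comparisons. It was higher in naive brain than in blood by 5.96 ± 0.79 (adjusted p = 1.28e-07) and at day 3 than in blood by 4.01 ± 0.79 (adjusted p = 0.000898), a call that was lost without day 3 replicate 1 (3.05, adjusted p = 0.0657). It was lower at day 30 than in naive brain by a difference of -3.33 ± 0.79 (adjusted p = 0.0444).

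Of 20 measured selectins and endothelial or matrix ligands, 3 were higher at day 3 than in naive brain, where 0.152% of all genes were, and none lower. The list's median of 0.50 was that of all genes. All 3 are secreted proteins that integrins or CD44 bind: Spp1, which encodes osteopontin (8.48 ± 0.95, adjusted p = 1.17e-08), Thbs1, thrombospondin (6.51 ± 1.03, adjusted p = 0.000262), and Fn1, fibronectin (5.46 ± 0.95, adjusted p = 0.000992). Spp1 measured 9672, 788 and 807 CPM in day 3 replicates 1 to 3, and averaged 94.0 CPM at day 30 and 6.10 in naive brain. Its day 3 mean was 3756 CPM, or 798 without replicate 1. Against blood, Spp1 (8.80 ± 0.95) and Thbs1 (4.17 ± 1.03) were also higher at day 3, and Fn1 was not called. Spp1 was higher at day 30 than in blood too (3.85 ± 0.95, limma adjusted p = 0.0256), where 0.676% of all genes were. The Thbs1 call against blood was lost without day 3 replicate 1 (3.80, limma adjusted p = 0.228). Fn1 measured 16.2, 53.2 and 52.1 CPM in blood, 19.4, 2.80 and 1.29 in naive brain, and 977, 161 and 94.8 at day 3. From day 3 to day 30 Spp1 (-4.96 ± 0.95) and Thbs1 (-6.04 ± 1.03) were lower, and without day 3 replicate 1 Thbs1 still passed (-5.67, adjusted p = 0.0167) while Spp1 did not (-3.76, adjusted p = 0.121). Macrophages are known to make Spp1, Thbs1 and Fn1, and their part in these differences was not tested. Of 15 monocyte and macrophage markers, 11 had positive and 4 negative differences between day 3 and naive brain, and only Chil3 was called higher. The junction protein F11r was higher in naive brain than in blood (5.26 ± 0.84) and at day 30 than in blood (3.52 ± 0.84).

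Among 12 other adhesion receptors, Cd2, a receptor for CD48 that steadies contact with target cells, was lower at day 3 than in naive brain (-4.81 ± 0.81, adjusted p = 0.000712) and higher again at day 30 than at day 3 (3.48 ± 0.81, adjusted p = 0.0297). Cd6 (-3.55 ± 0.84) and Cd226 (-3.26 ± 0.80), both T cell receptors for ligands on other cells, were also lower at day 3 than in naive brain. Cd24a, a mucin-like protein of many immune cells, was higher (5.32 ± 1.16, adjusted p = 0.0108). That made 3 of 12 lower and 1 higher, where 0.564% of all genes were called lower and 0.152% higher. From day 3 to day 30, where 0.255% of all genes passed, Cd226 was also higher (3.26 ± 0.80, limma adjusted p = 0.0475). Cd24a was lower there (-4.81 ± 1.16, adjusted p = 0.0429), a call lost without day 3 replicate 1 (-3.95, adjusted p = 0.160). Of the 12, 4 were higher in naive brain than in blood, where 6.61% of all genes were: Sirpa, a receptor chiefly of myeloid cells (4.55 ± 0.80), Crtam (3.20 ± 0.98), Cd2 (2.96 ± 0.81) and Ninj1 (2.94 ± 0.92). At day 3 against blood, Sirpa was higher (3.51 ± 0.80, limma adjusted p = 0.00723), where 1.1% of all genes were. This call was lost without day 3 replicate 1 (2.90, adjusted p = 0.174). Cd226 was lower at day 3 than in blood (-2.99 ± 0.80, adjusted p = 0.0362). Cd2 and Cd6 also belong to the CD8 T cell markers. Of 12 genes that decorate selectin ligands, Tpst2, which sulphates PSGL-1, was higher in naive brain than in blood (3.94 ± 0.84, adjusted p = 0.00103) and lower at day 3 than in naive brain (-4.03 ± 0.84, adjusted p = 0.00688). St3gal6, a sialyltransferase, was higher in naive brain than in blood (2.73 ± 0.82), and C1galt1c1, a chaperone of O-glycan synthesis, at day 30 than in blood (4.69 ± 1.02). All 11 genes of these further lists named for day 3 against naive brain, from Skap1 to Tpst2, also passed without day 3 replicate 1. That fit sets high background day 3 libraries against low background naive brain libraries, so it cannot tell group and background apart.

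The genes whose levels followed each member most closely were ranked by Pearson's r over the 12 libraries, among 10795 genes with a mean of at least 10 CPM. The libraries share group, depth and background, so these values are descriptions. Itgb1 was most like Xcl1, a chemokine of activated CD8 T cells (r = 0.974). Itga4 was most like Ptpn22, a phosphatase of T cell receptor signalling (0.971), then Ablim1 and Bcl2. Itgam was most like the ferritin chain Fth1 (0.977), then Lamp1 and Ftl1. Selplg was most like Cd37, a leukocyte tetraspanin (0.984), then Laptm5 and Zyx. Icam1 was most like Eef1d (0.973), then Nudcd3 (0.971) and the microglial receptor Cx3cr1 (0.966). The first matches of the remaining members were Mtpap for Itgal (0.969), Bysl for Itgb2 (0.967), Arl2bp for Itgb7 (0.969) and Gdi2 for Cd44 (0.941). Itgax had the weakest match, Adam11 (0.877), with Csf2rb, a receptor chain of myeloid growth factors, in the third place (0.841).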

How the data were processed

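RNA of sorted CD8 T cells was amplified with a SMART-Seq v4 ultra low input kit, which adds no molecular identifiers, per the labels' protocols. The submitters' processing notes name STAR 2.5.3a, the mm10 build, FastQC 0.11.2, featureCounts of Subread, and edgeR. Annotation, strand setting and filters: not given in the sources used here. A single deposited table by the authors holds a signal: counts divided by a library size to which a scaling factor had been applied (CPM). Each column's values were whole multiples of 1 read (100% within 1e-06 reads), so reads were recovered. The plan took the values for plain CPM, and they were tested in the same way.

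For testing, log2(CPM + 1) was fitted by limma 3.58.1 (R 4.3.3, moderated with a trend, two-sided) on all 12 libraries. A gene needed 1 CPM or more in 3 libraries, which kept 22352 genes and left out 1585. All 10 members passed this filter. The 6 comparisons were adjusted separately by Benjamini and Hochberg, and the fits were tested on simulated data. A count of 0 allows up to 3 reads, or 0.298 to 1.65 CPM by library, for counting error only. Background was split at an unscaled CPM of 1323 on 1484 receptor genes, at the widest gap. Positions and exon lengths come from GENCODE vM21 of the same build, and promoters were matched by symbol for 7 of 10 members, not Itgal, Itgb2 and Selplg.

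The members and lists were chosen with earlier results of these data known. All members are named; from each other list up to 4 genes past the threshold with the largest difference and a mean of at least 10 CPM are named. Alternatives were pseudocounts of 0.1 and 5, other filters, unscaled CPM, quantile normalization, edgeR 4.0.16 and DESeq2 1.42.0 on recovered reads, 2 groups alone, quality weights, a background term, each background class alone, a replicate block, transcript lengths and leaving out each library. For day 30 and day 3, same-numbered libraries deviated together (correlations 0.530, 0.284 and 0.165 across genes), and the other groups did not pair. Libraries of unlike number did so too: 0.214 for day 30 replicate 2 with day 3 replicate 3, and 0.180 for day 30 replicate 3 with day 3 replicate 2. The main fit held no block, and a pairing by number entered only the replicate block. This pairing cannot be told apart from the background split.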

Additional observations from a re-analysis of the deposited data

Results flagged for a closer look

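For Itga4, the differences from blood had opposite signs at the 2 times after stroke, and neither passed (limma adjusted p = 0.589 at day 3 and 0.763 at day 30). Day 3 overlapped the blood libraries, with 237 CPM in replicate 1 against 197 to 340 CPM in blood, and day 30 did not. Measured from the mean of naive blood, every day 3 library was lower and every day 30 library was higher, with differences of -1.40 and 0.75 on the log2(CPM + 1) scale. The 2 differences were -2.14 apart (day 3 minus day 30). By limma the same difference, taken as day 30 minus day 3, had an adjusted p of 0.274, so it did not pass. Both differences are measured from the same 3 blood libraries.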

How the results depend on the processing

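The number of members called in day 3 against blood (1 by limma as described) was 0 with quality weights, without a filter, with a pseudocount of 0.1, with the background term and in high background libraries alone, 2 with 2 groups alone, 4 with unscaled CPM or quantile normalization and 5 with DESeq2. Against naive brain it went from 0 to 2 (unscaled CPM), 1 (DESeq2) and 7 (quality weights) at day 3, and from 0 to 1 with unscaled CPM and with quality weights at day 30. Between day 30 and day 3 it went from 0 to 3 with unscaled CPM, 1 with DESeq2 and 2 with quality weights or the background term. In naive brain against blood it fell from 7 to 3 with quantile normalization and 0 with the background term, and in day 30 against blood it rose from 1 to 2 with unscaled CPM, edgeR or DESeq2. With the replicate block it was 3 and 1 for day 3 and day 30 against naive brain and 2 for either against blood, and the block changed no count in the other 2 comparisons. The block sets libraries of the other groups side by side only by number. All genes called moved with the settings too, from 135 to 601 for day 3 against blood (264 as reported) and from 35 to 313 for day 30 against blood (159 as reported). The member counts under each setting are therefore not read as results about the members alone. Leaving out single libraries gave 0 to 3 members for day 3 against blood, 0 to 6 and 0 to 2 for day 3 and day 30 against naive brain, 0 to 2 for day 30 against day 3, 1 to 2 for day 30 against blood and 4 to 8 for naive brain against blood. Where that leaves 1 library in a class or group, it is assumed to vary like the rest. With single libraries left out, all genes called ranged from 22 to 666 for day 3 against naive brain. They ranged from 1 to 532 for day 30 against naive brain and from 26 to 115 for day 30 against day 3.

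Of 37 member differences that passed, did not overlap or had an unadjusted p under 0.05, 2 changed sign under some setting. Itga4 in naive brain against blood (0.80) became -0.41 with unscaled CPM, -0.64 with quantile normalization and -0.068 with the background term. Itgb7 in day 30 against naive brain (-1.84) became 0.27 in low background libraries alone. The cause was not tested. The median of all genes moved from 0.50, 0.19, -0.15, -0.37, 0.03 and -0.05 (day 3 minus naive brain, day 30 minus naive brain, day 30 minus day 3, then naive brain, day 3 and day 30 minus blood) to 1.13, 0.57, -0.45, -1.05, -0.06 and -0.44 with unscaled CPM. All genes called ranged over the settings from 0 to 2104 for day 3 against naive brain (160 as reported) and from 35 to 4169 for naive brain against blood (1696 as reported). High background libraries held at most 2141262 reads.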

Other observations

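Day 3 replicate 1 was the highest of its group for all 10 members, and Itgam showed the widest gap, at 7.13 times the mean of replicates 2 and 3. Day 30 replicate 1 was highest for 6 members, with Selplg at 11.1 times and Itgb7 at 9.03 times the mean of replicates 2 and 3. Itga4 (0.869 times), Cd44 (0.687 times) and Itgax (0.420 times) were below that mean in the same library. Among markers, H2-Ab1, an MHC class II chain, measured 9191, 715 and 562 CPM in day 3 replicates 1 to 3, and Lyz2, a lysozyme of myeloid cells, 7864, 413 and 495.

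Other marker lists took small shares of the reads in every library. The highest were 0.103% for natural killer cells, in naive brain, 0.0430% for endothelial cells, at day 3, 0.0229% for CD4 T cells, at day 30, 0.0181% for neutrophils, in naive brain, 0.0141% for platelets, at day 3, and 0.0123% for B cells, at day 30. Some peaks did not rest on the best known marker. In naive brain replicate 3, Csf3r gave 321 of 378 neutrophil CPM and S100a9 0.894, against 84.6 in day 3 replicate 1. Between day 3 and naive brain, 8 neutrophil genes had positive and 1 a negative difference, none called. In the peak libraries, Ncr1 gave 0.894 of 2153 natural killer CPM and Cd4 3.21 of 181 CPM of its list.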
